A study of Homo sapiens with 12 samples.

Results

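Huh7 and HLF are established cell lines from human hepatocellular carcinoma, the main cancer of liver parenchymal cells. They were compared here in 3D culture, as the 4 Huh7 libraries grown in Matrigel against the 4 HLF libraries grown in Matrigel, 8 of the 12 poly-A RNA libraries of the study. Matrigel is a basement membrane extract that sets to a gel. The libraries were assigned to lines and cultures by their labels, and all genes were compared. Huh7 Inject-Embed cultures were started by injecting 4000 cells per well into the centre of a Matrigel gel, and HLF Inject-Embed cultures in the same way from 2000 cells per well. Huh7 Mix-Embed cultures were started from 20000 cells per well that were mixed with Matrigel and laid on a set gel, and HLF Mix-Embed cultures from 10000 cells per well. Each of these 4 groups had 2 replicates, which the labels call biological without saying what was repeated. P-values measure the spread between them. For the line comparison over both cultures they also take in how far the line difference varied between the cultures. All were labelled wild-type, grown in DMEM with 10% fetal bovine serum and harvested on days 6 to 8. The other 4 libraries, 2 of Huh7 and 2 of HLF, came from flat 2D cultures harvested on day 2 at about 90% confluence, and serve below as a comparison. In each Matrigel culture more Huh7 than HLF cells were seeded, so the line and the number of cells seeded cannot be told apart. Each line stands only for itself, and a difference between them is no difference between classes of tumour.

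Hepatocytes make most of the proteins of blood plasma, clear drugs and ammonia, and handle cholesterol and bile acids. Their genes are held active by a network of transcription factors, among them HNF4A, CEBPA and the FOXA proteins, which also bind one another's promoters. Liver cancer cells keep this programme to very different degrees. Cells that have lost it often carry genes of the mesenchymal state, in which vimentin filaments, contractile actin and matrix receptors take the place of epithelial junctions. Huh7 is known as a well-differentiated line and HLF as an undifferentiated one.

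The 8 Matrigel libraries held 12325877 to 15565857 counts. Levels are given as CPM, counts over each library's total for the tested genes after TMM scaling, which sets the typical gene equal between libraries. In CPM, a count of 3 equalled 0.178 to 0.255 depending on the library, and intervals given on counts cover counting error only. CPM is not divided by gene length, so it is compared between samples and not between genes. Differences are log2 of Huh7 over HLF with culture as a covariate, given ± standard error with n = 4 libraries per line, and p-values are from edgeR's quasi-likelihood test, adjusted by the Benjamini-Hochberg method over all genes. The first principal component of the 8 libraries carried 94.3% of their variance and separated the lines, and the second carried 1.9%.

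Of 18580 genes tested, 15168 (81.6%) differed between the lines at an adjusted p under 0.05, with 7332 (39.5%) higher in Huh7 and 7836 (42.2%) lower. The median absolute difference was 1.01 on the log2 scale. A difference of at least 2 on that scale was called for 5568 genes (30%), 2628 higher in Huh7 (14.1%) and 2940 lower (15.8%), and for 1822 genes by limma on log2(FPKM + 1), a scale that understates the differences of low genes. The 4 Huh7 libraries lay wholly above or wholly below the 4 HLF libraries for 13854 genes (74.6%). A call alone therefore says little about any single gene here, and the size of the difference and the level in each line are given throughout. Counts of list members higher and lower over both cultures are to be read against these shares of 39.5% and 42.2%. At a mean of 10 CPM or more in one line and no more than 3 counts over the 4 libraries of the other, 215 genes were found in Huh7 and 246 in HLF. At 100 CPM or more there were 25 such genes in Huh7, of which 11 had no count in HLF, and 34 in HLF, of which 20 had no count in Huh7.

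Plasma proteins were among the genes with the greatest differences. AFP, alpha-fetoprotein, the albumin of the fetal liver and a serum marker of liver cancer, had 18904 and 20054 CPM in Huh7 Inject-Embed and 23398 and 23086 CPM in Huh7 Mix-Embed, against 4.86 and 5.46 CPM in HLF Inject-Embed and 9.7 and 7.07 CPM in HLF Mix-Embed. The lines did not overlap, and AFP was higher in Huh7 by 11.62 ± 0.12 on the log2 scale (adjusted p = 1.65e-17). ALB, serum albumin, had 1128 and 1209 CPM in Huh7 Inject-Embed and 672 and 650 CPM in Huh7 Mix-Embed, against a single count over the 4 HLF libraries. That is 56764-fold higher in Huh7 with a counting interval of 10188 to 2242100. APOB, the protein core of liver lipoproteins, had 6287 and 6579 CPM in Huh7 Inject-Embed and 5875 and 5610 CPM in Huh7 Mix-Embed, against 0 counts in all 4 HLF libraries. Set against a floor of 3 counts over the 4 HLF libraries, APOB was at least 127200-fold higher in Huh7.

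The promoters of 4 genes of plasma proteins and lipid carriage are shown because each holds GTTAAT, a motif searched for in all promoters. Each is the 250 bases before the transcription start, 5′ to 3′ on the gene's strand, from RefSeq on GRCh38.p14, and capitals mark the GTTAAT motif or, on the opposite strand, ATTAAC. ALB lies at chr4:73404037-73404286 and AFP at chr4:73435971-73436220, both on the plus strand, FABP1 at chr2:88128063-88128312 on the minus strand and FGB at chr4:154562730-154562979 on the plus strand.
ALB: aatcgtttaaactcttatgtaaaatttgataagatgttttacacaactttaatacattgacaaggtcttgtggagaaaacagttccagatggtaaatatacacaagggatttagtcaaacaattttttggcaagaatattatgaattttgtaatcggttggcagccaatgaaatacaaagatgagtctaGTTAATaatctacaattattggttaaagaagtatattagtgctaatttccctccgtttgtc
AFP: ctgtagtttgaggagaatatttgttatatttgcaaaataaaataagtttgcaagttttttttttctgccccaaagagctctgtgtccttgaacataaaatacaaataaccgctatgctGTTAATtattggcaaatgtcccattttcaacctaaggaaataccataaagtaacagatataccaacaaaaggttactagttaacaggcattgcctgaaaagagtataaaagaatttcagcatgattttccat
FABP1: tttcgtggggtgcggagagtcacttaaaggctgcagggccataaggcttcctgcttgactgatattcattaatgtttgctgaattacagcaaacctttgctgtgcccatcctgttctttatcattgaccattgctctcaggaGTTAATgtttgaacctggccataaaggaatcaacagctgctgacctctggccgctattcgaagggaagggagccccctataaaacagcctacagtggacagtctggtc
FGB: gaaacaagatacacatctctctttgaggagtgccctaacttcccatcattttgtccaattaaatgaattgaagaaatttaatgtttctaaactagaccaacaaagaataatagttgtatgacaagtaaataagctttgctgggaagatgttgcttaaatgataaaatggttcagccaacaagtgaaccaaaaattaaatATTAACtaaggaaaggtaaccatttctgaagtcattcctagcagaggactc
The motif began 61 bases before the start in ALB, 132 in AFP and 108 in FABP1, and in FGB it lay 51 bases before the start on the opposite strand. Searched on both strands, GTTAAT was in 13 of 55 promoters of the plasma carrier, apolipoprotein, coagulation and complement lists (23.6%). It was in 6.22% of all 27305 promoters and 3.74% of the 11459 promoters of tested protein-coding genes. Among genes that differed by at least 2 on the log2 scale it was in 96 of 1436 promoters of genes higher in Huh7 (6.69%) and 74 of 1530 of genes lower in Huh7 (4.84%). These are matches of letters, with no measurement of binding.

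In the list of the albumin family and plasma carriers, 20 of 20 tested members were higher in Huh7 and none lower, with a median difference of 9.53, against a median over all genes of -0.0436. Of these, 10 members had 3 or fewer counts in HLF, and the median was 7.15 without them. With only the members that had no count in HLF set at their lower bounds, the median was 8.88. TF, transferrin, the iron carrier of plasma, had 3413 and 3403 CPM in Huh7 Inject-Embed and 6928 and 6879 CPM in Huh7 Mix-Embed, against 1 count over the 4 HLF libraries. AHSG, fetuin-A, had 805 to 1590 CPM in Huh7 and no count in HLF, at least 25318-fold higher in Huh7. SERPINA1, alpha-1-antitrypsin, averaged 4777 ± 824 CPM in Huh7 and 3.38 ± 1.28 CPM in HLF (SD, n = 4 each), a difference of 10.44 ± 0.10 (adjusted p = 1.65e-17). The apolipoproteins and proteins of lipoprotein assembly gave 14 of 14 members higher in Huh7. Their median was 8.12, or 7.51 with members that had no count in HLF at their bounds. APOE, the ligand by which lipoprotein remnants are taken up, had 1098, 986, 1173 and 1275 CPM in Huh7, against 1.04, 1.25, 1.43 and 1.66 CPM in HLF. FABP1, the fatty acid carrier of hepatocyte cytosol, had 230 to 399 CPM in Huh7 and no count in HLF, at least 6534.8-fold higher in Huh7.

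Fibrinogen and coagulation genes gave 20 of 20 members higher in Huh7. Their median was 7.95, or 7.65 with members that had no count in HLF at their bounds. The 3 fibrinogen chains, which form the fibre of a clot, were unequal in HLF. FGG had 1377, 1374, 1108 and 1067 CPM in Huh7, against 8.95, 8.15, 13.8 and 14.5 CPM in HLF. FGA had 1062, 1096, 1110 and 1118 CPM in Huh7, against 2.27, 1.76, 4.51 and 2.43 CPM in HLF. FGB had 909, 932, 924 and 877 CPM in Huh7, against 28.3, 24.6, 46.7 and 41.8 CPM in HLF. The differences were 6.74 ± 0.17 for FGG, 8.64 ± 0.14 for FGA and 4.70 ± 0.14 for FGB, and none of the chains overlapped between the lines. Per gene length (FPKM), FGB had the highest level of the 3 chains in HLF and FGA the lowest. Complement genes gave 18 of 19 members higher in Huh7 and none lower, with a median of 5.44. Without the 6 members that had 3 or fewer counts in a line, the median was 3.88. C3, the protein on which the complement pathways meet, had 947, 937, 1039 and 1024 CPM in Huh7, against 15, 16.6, 30.7 and 29.6 CPM in HLF. MASP1, a protease that starts the lectin pathway, had 111 to 136 CPM in Huh7 and no count in HLF, at least 2616.7-fold higher in Huh7.

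**Figure D1:**
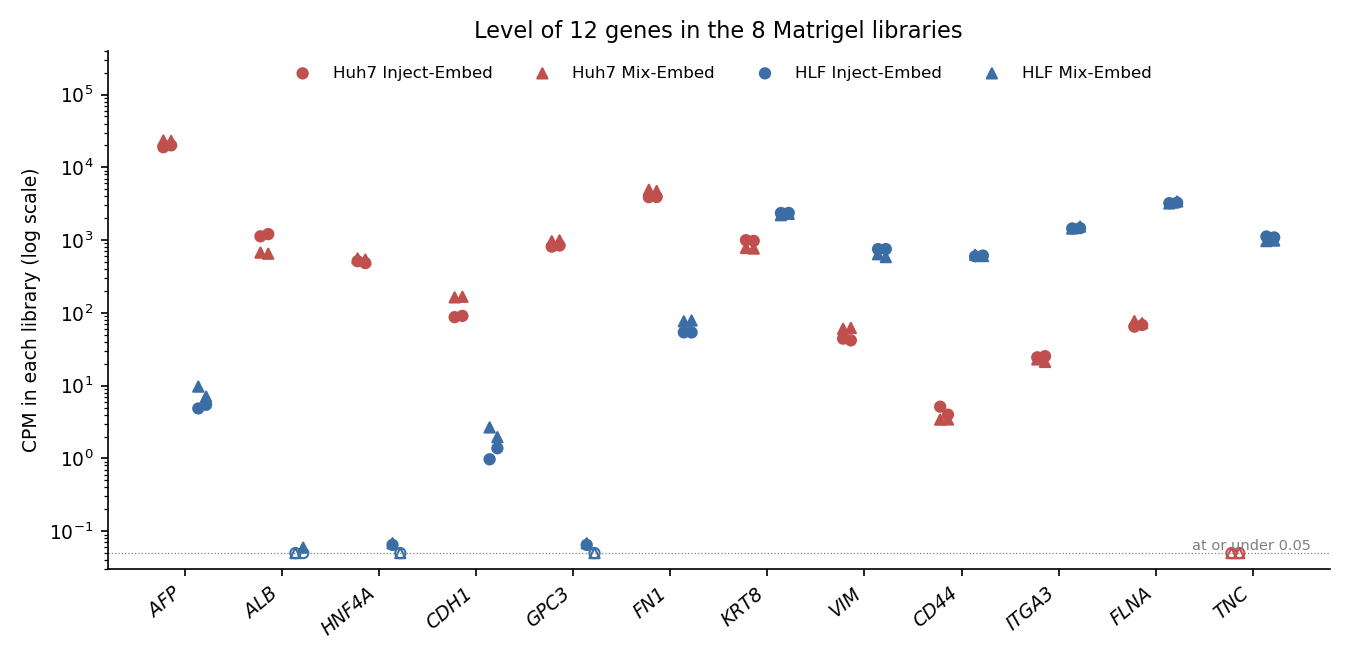
Level of 12 genes in each of the 8 Matrigel libraries, as CPM on a logarithmic axis, with Huh7 in red and HLF in blue, circles for Inject-Embed and triangles for Mix-Embed. Open symbols are libraries with 0 counts, drawn at 0.05 CPM. AFP, ALB, HNF4A, CDH1, GPC3 and FN1 lie higher in Huh7, and KRT8, VIM, CD44, ITGA3, FLNA and TNC lie lower, with no overlap between the lines in any of the 12.

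Of the 23 hepatocyte transcription factors tested, 21 were higher in Huh7 and 2 lower, with a median of 4.93. HNF4A, the nuclear receptor at the centre of the network, had 513, 483, 560 and 541 CPM in Huh7, against 2 counts over the 4 HLF libraries. That is 16525-fold higher in Huh7 with a counting interval of 4574.2 to 136460. CEBPA averaged 260 ± 30.3 CPM in Huh7 and 1.8 ± 0.946 CPM in HLF (SD, n = 4 each). GATA4 averaged 276 ± 32.5 CPM in Huh7 and 8.87 ± 0.728 CPM in HLF, and RXRA, the partner of many nuclear receptors, 245 ± 28.3 CPM in Huh7 and 54.2 ± 3.17 CPM in HLF. NR2F1, an orphan nuclear receptor, was one of the 2 that were lower, at 52.3 ± 6.87 CPM in Huh7 and 127 ± 25.6 CPM in HLF (SD, n = 4 each), a difference of -1.29 ± 0.08 (adjusted p = 2.34e-09).

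Enzymes of liver metabolism were less one-sided than the secreted proteins. Cytochrome P450 genes gave 11 of 17 tested members higher in Huh7 and 5 lower, against 39.5% higher and 42.2% lower over all genes. Conjugation enzymes gave 14 of 17 higher and 3 lower, and bile acid genes 10 of 12 higher and 2 lower. Urea cycle and amino acid genes gave 17 of 21 higher and 4 lower. HGD, an enzyme of tyrosine breakdown, had 125, 139, 107 and 104 CPM in Huh7, against 0.259, 0, 0 and 0.0594 CPM in HLF. SULT2A1, a steroid sulfotransferase, had 62.2 to 85.4 CPM in Huh7 and 1 count over the 4 HLF libraries. CYP27A1, an enzyme of bile acid synthesis, averaged 112 ± 4.03 CPM in Huh7 and 27.1 ± 1.26 CPM in HLF (SD, n = 4 each), and GLUL, glutamine synthetase, 785 ± 10.3 CPM in Huh7 and 220 ± 7.77 CPM in HLF. CYP1B1, a P450 of tissues outside the liver, went the other way, with 0.303, 0.595, 1.25 and 0.934 CPM in Huh7, against 128, 129, 124 and 122 CPM in HLF. Its difference was -7.33 ± 0.14 (adjusted p = 4.48e-15), as large in size as that of many secreted proteins.

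Cholesterol synthesis and uptake gave 19 of 24 members higher in Huh7 and 2 lower, with a median of 0.888. HMGCS1, an early enzyme of the pathway, averaged 700 ± 148 CPM in Huh7 and 110 ± 25.7 CPM in HLF (SD, n = 4 each). LSS, lanosterol synthase, was one of the 2 that were lower, with 170, 165, 211 and 217 CPM in Huh7, against 346, 349, 259 and 275 CPM in HLF (-0.71 ± 0.11, adjusted p = 2.38e-05). Fatty acid synthesis and lipid storage gave 13 of 23 higher in Huh7 and 7 lower, against 39.5% higher and 42.2% lower over all genes.

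**Figure D2:**
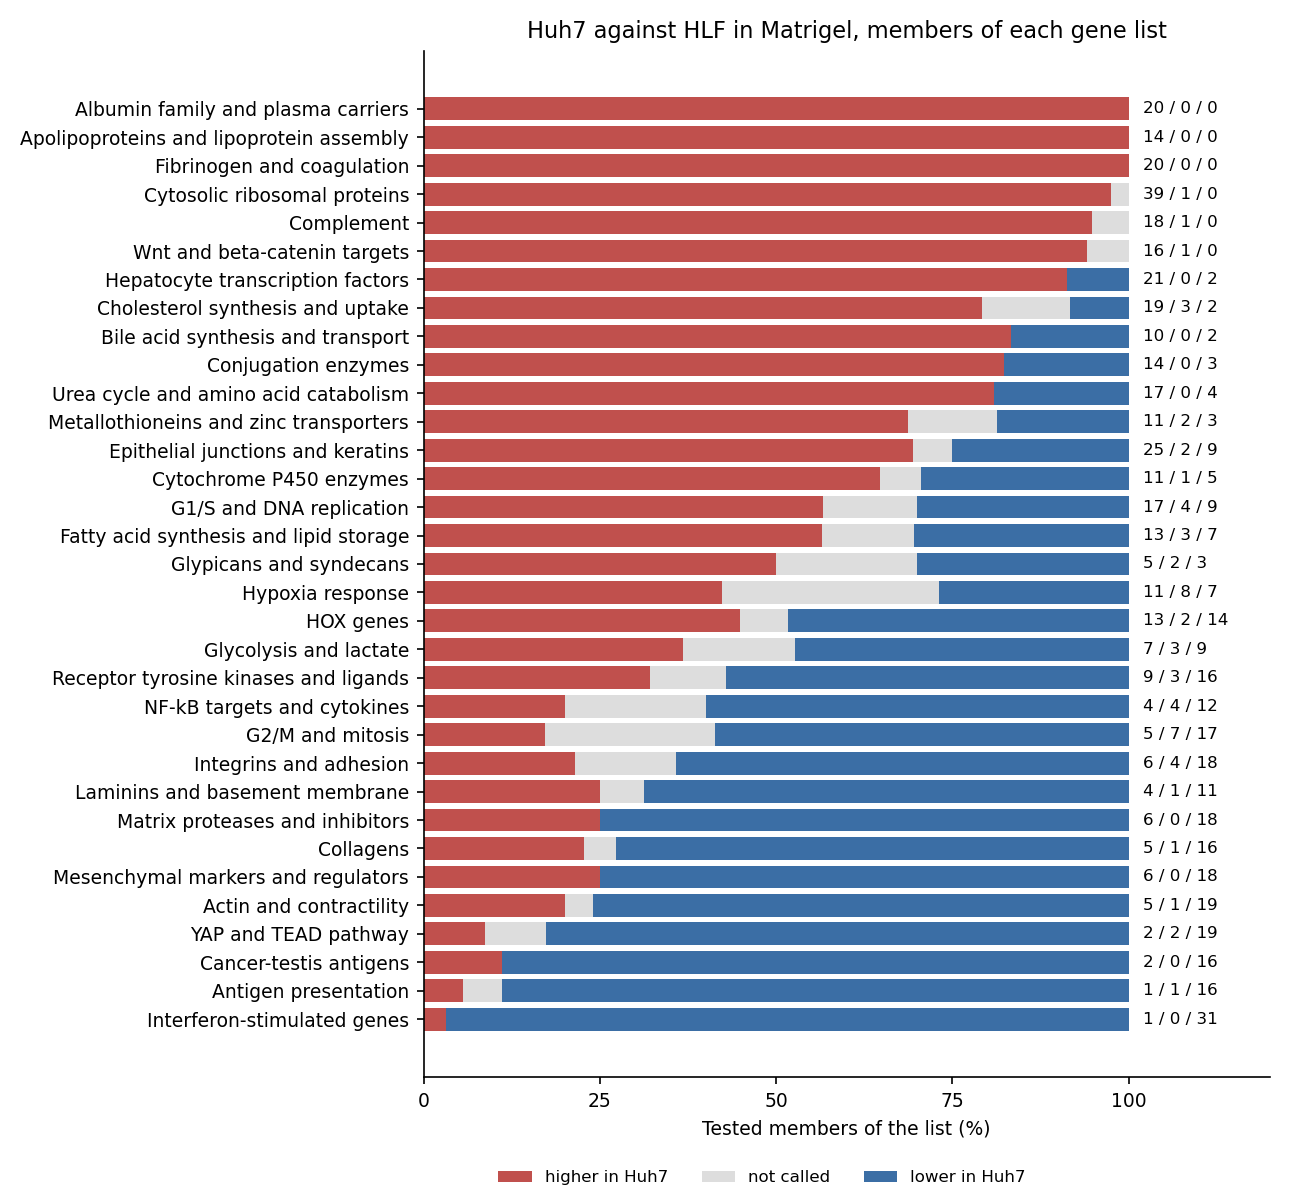
Share of the tested members of each gene list that were higher in Huh7 (red), not called (grey) or lower in Huh7 (blue) in Matrigel, in percent, with the 3 counts in that order at the right. Plasma protein lists are wholly or almost wholly red, interferon-stimulated genes, antigen presentation and cancer-testis antigens are almost wholly blue, and metabolic lists hold both.

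Genes of the epithelial and mesenchymal states were split within each list. Mesenchymal markers and regulators gave 18 of 24 members lower in Huh7 and 6 higher. Their median was -5.93, or -5.63 with members that had no count in the lower line at their bounds. Without the 8 members that had 3 or fewer counts in a line, the median was -3.87. VIM, vimentin, the intermediate filament of mesenchymal cells, had 44.3, 41.9, 60.5 and 61.9 CPM in Huh7, against 752, 754, 639 and 584 CPM in HLF (-3.73 ± 0.12, adjusted p = 1.25e-12). TNC, tenascin C, a matrix protein of wounds and tumour stroma, had no count in Huh7, against 1120, 1088, 969 and 985 CPM in HLF, at least 18107-fold lower in Huh7. CD44, the hyaluronan receptor, had 5.15, 4, 3.41 and 3.42 CPM in Huh7, against 599, 613, 628 and 603 CPM in HLF (-7.28 ± 0.09, adjusted p = 8.74e-17). FN1, fibronectin, was a member that went the other way. It had 3893, 3915, 4910 and 4723 CPM in Huh7, against 54, 53.8, 76.5 and 78.4 CPM in HLF (6.04 ± 0.07, adjusted p = 2.22e-17). Fibronectin is a mesenchymal marker in many tissues and also a plasma protein made by hepatocytes. LOX, which crosslinks collagen, was likewise higher in Huh7, with 350 to 672 CPM in Huh7 and 1.19 to 3.2 CPM in HLF.

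Junction genes and keratins gave 25 of 36 members higher in Huh7 and 9 lower. CDH1, E-cadherin, had 87.3, 90.9, 163 and 166 CPM in Huh7, against 0.973, 1.38, 2.66 and 1.96 CPM in HLF (6.16 ± 0.10, adjusted p = 4.12e-16). Desmoplakin, DSP, the anchor of keratin at desmosomes, averaged 340 ± 66.6 CPM in Huh7 and 2.9 ± 1.38 CPM in HLF, and EPCAM, an epithelial adhesion molecule, 80.5 ± 7.7 CPM in Huh7 and 0.398 ± 0.312 CPM in HLF (SD, n = 4 each). The keratin pair of simple epithelia did not follow the junctions. KRT8 had 999, 976, 780 and 765 CPM in Huh7, against 2356, 2365, 2199 and 2291 CPM in HLF, and KRT18 had 220, 217, 193 and 189 CPM in Huh7, against 928, 911, 965 and 919 CPM in HLF. Both were lower in Huh7, by differences of -1.42 ± 0.06 for KRT8 and -2.21 ± 0.06 for KRT18, although both genes have processed pseudogenes that can share reads. HLF therefore combined near-absent E-cadherin RNA with the higher levels of the pair of keratins that marks hepatocytes. KRT7, a bile duct keratin, had no count in Huh7, against 7.65, 6.59, 7.31 and 8.79 CPM in HLF.

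The lines carried different matrix genes. Of 22 collagens tested, 16 were lower in Huh7 and 5 higher, with a median of -3.68. COL2A1, the collagen of cartilage, had 3555, 3457, 4355 and 4432 CPM in Huh7, against 2 counts over the 4 HLF libraries. COL4A1, a chain of basement membrane collagen, had 3 counts over the 4 Huh7 libraries, against 288, 288, 312 and 323 CPM in HLF. The chains of type I collagen, which combine in one triple helix, were divided between the lines. COL1A1 had 0.681, 0.34, 1.74 and 1.4 CPM in Huh7, against 61.6, 62.9, 48.8 and 59.3 CPM in HLF (-5.77 ± 0.21, adjusted p = 2.99e-12), while COL1A2 had 43, 39, 81.8 and 78.1 CPM in Huh7, against 2.14, 1.57, 1.02 and 1.07 CPM in HLF (5.30 ± 0.22, adjusted p = 1.25e-11). Laminins and other basement membrane genes gave 11 of 16 lower in Huh7 and 4 higher. LAMB1 differed by -0.87 ± 0.08 and LAMC1 by -0.58 ± 0.05, both chains of laminins that Matrigel itself supplies as protein.

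Receptors for this matrix and the proteases that cut it were mostly lower in Huh7. Integrins and adhesion genes gave 18 of 28 members lower in Huh7 and 6 higher, and matrix proteases and their inhibitors 18 of 24 lower and 6 higher. ITGA3, the alpha chain of a laminin receptor, averaged 23.5 ± 1.87 CPM in Huh7 and 1470 ± 42.1 CPM in HLF (-5.99 ± 0.07), and its partner chain ITGB1 averaged 307 ± 9.9 CPM in Huh7 and 1083 ± 80.2 CPM in HLF (-1.84 ± 0.05). FERMT1, an activator of integrins in epithelia, was among the 6 that went the other way, with 27.3 to 33.6 CPM in Huh7 and 0.259 to 0.547 CPM in HLF. Among inhibitors of proteases, TIMP2 had 1.89, 1.96, 2.44 and 3.03 CPM in Huh7, against 205, 203, 206 and 200 CPM in HLF. Glypicans and syndecans, the heparan sulfate proteins of the surface, gave 5 of 10 higher in Huh7 and 3 lower. GPC3, a fetal liver glypican and marker of liver cancer, had 814, 842, 965 and 991 CPM in Huh7, against 2 counts over the 4 HLF libraries, 28451-fold higher in Huh7 with a counting interval of 7875.7 to 234940. GPC1 had 0.0778 to 0.697 CPM in Huh7, against 71.1 to 87.6 CPM in HLF.

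The actin and contractility list gave 19 of 25 members lower in Huh7 and 5 higher, with a median of -1.30. FLNA, filamin A, which crosslinks actin, had 64.7, 68.1, 77 and 72.1 CPM in Huh7, against 3219, 3270, 3189 and 3397 CPM in HLF (-5.56 ± 0.06, adjusted p = 1.65e-17). MYL9, a light chain of contractile myosin, averaged 3.66 ± 0.343 CPM in Huh7 and 395 ± 25.4 CPM in HLF (SD, n = 4 each). MSN, moesin, which ties actin to the membrane, had no count in Huh7, against 485, 483, 446 and 450 CPM in HLF, at least 8104.5-fold lower in Huh7. TMSB4X, which holds actin monomers, had 0.984, 1.11, 1.46 and 1.95 CPM in Huh7, against 1041, 1026, 805 and 769 CPM in HLF (-9.36 ± 0.12, adjusted p = 1.06e-16). FLNA, MSN and TMSB4X all lie on chromosome X, to which the chromosome comparison below returns.

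YAP1 and its relative WWTR1 carry signals of stiffness and cell contact into the nucleus, where they act through TEAD factors on genes such as CCN1, CCN2 and ANKRD1. In that list 19 of 23 members were lower in Huh7 and 2 higher, with a median of -1.53. YAP1 itself differed by -0.53 ± 0.05, with 158 to 193 CPM in Huh7 and 242 to 248 CPM in HLF. CCN1 had 3.48, 1.96, 3.06 and 2.65 CPM in Huh7, against 106, 114, 124 and 125 CPM in HLF (-5.40 ± 0.11, adjusted p = 4.35e-15). CCN2 did not share this. It had 30.2 and 36 CPM in Huh7 Inject-Embed and 29.8 and 35.5 CPM in Huh7 Mix-Embed, against 22.5 and 20.1 CPM in HLF Inject-Embed and 37.9 and 35.2 CPM in HLF Mix-Embed. The lines overlapped, with a difference of 0.20 ± 0.14 (adjusted p = 0.215), and a call was made without Huh7 Mix replicate 1, at 0.35. ANKRD1, an ankyrin repeat protein first studied in heart muscle, had 0.681, 0.935, 0.279 and 0.311 CPM in Huh7, against 5.25, 3.89, 6.15 and 6.12 CPM in HLF (-3.31 ± 0.32, adjusted p = 2.74e-07). The promoters of CCN2 and ANKRD1 are shown because they belong to one pathway, hold the TEAD motif and yet differed in how the lines compared. CCN2 lies at chr6:131951373-131951622 and ANKRD1 at chr10:90921088-90921337, both on the minus strand, again as the 250 bases before the start, and capitals mark GGAATG.
CCN2: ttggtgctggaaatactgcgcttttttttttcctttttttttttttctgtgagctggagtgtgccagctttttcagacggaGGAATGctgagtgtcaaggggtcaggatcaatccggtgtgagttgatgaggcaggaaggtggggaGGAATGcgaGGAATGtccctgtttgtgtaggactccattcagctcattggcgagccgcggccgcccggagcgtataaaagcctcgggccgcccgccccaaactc
ANKRD1: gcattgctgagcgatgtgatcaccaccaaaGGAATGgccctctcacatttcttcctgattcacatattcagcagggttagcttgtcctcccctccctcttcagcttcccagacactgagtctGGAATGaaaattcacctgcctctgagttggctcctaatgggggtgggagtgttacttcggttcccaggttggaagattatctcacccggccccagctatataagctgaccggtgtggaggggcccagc
The motif began 169, 104 and 95 bases before the start in CCN2 and 220 and 128 in ANKRD1. On both strands, GGAATG was in 6 of 16 promoters of the list (37.5%), in 11.9% of all promoters and 9.45% of those of tested protein-coding genes. It was in 10.6% of promoters of genes higher in Huh7 by at least 2 on the log2 scale and 10.8% of those lower by as much.

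Wnt signalling works through beta-catenin, which in many liver cancers is kept from being destroyed and which switches on LGR5, AXIN2 and GLUL. Of 17 members tested, 16 were higher in Huh7 and none lower, with a median of 4.35, and CCND1 was the member not called. Without the 3 members that had 3 or fewer counts in a line, the median was 2.09. CTNNB1, beta-catenin itself, averaged 837 ± 42.6 CPM in Huh7 and 324 ± 19.3 CPM in HLF (1.35 ± 0.05, adjusted p = 8.88e-12). LGR5, a receptor of stem cells and of hepatocytes around the central vein, had 54.3, 53.4, 66.9 and 66.8 CPM in Huh7, against 2 counts over the 4 HLF libraries. Receptor tyrosine kinases and their ligands gave 9 of 28 higher in Huh7 and 16 lower, against 39.5% higher and 42.2% lower over all genes. EGFR, a receptor of hepatocyte growth signals, averaged 318 ± 33.2 CPM in Huh7 and 411 ± 3.58 CPM in HLF (-0.40 ± 0.06, adjusted p = 3.05e-05). MET, the receptor of hepatocyte growth factor, averaged 169 ± 9.46 CPM in Huh7 and 400 ± 7.46 CPM in HLF (-1.27 ± 0.05, adjusted p = 1.91e-11). KIT and AXL were near or at 0 in Huh7. KIT had no count in Huh7 and 161, 160, 165 and 161 CPM in HLF, and AXL had 2 counts over the 4 Huh7 libraries and 324, 337, 309 and 327 CPM in HLF. IGF2, a fetal growth factor, was the reverse, with 88.3, 71.5, 106 and 133 CPM in Huh7 and no count in HLF, at least 2102.1-fold higher in Huh7.

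Interferon-stimulated genes, which cells switch on in defence against viruses, gave 31 of 32 members lower in Huh7 and 1 higher, with a median of -3.79, and their summed level was 235 to 275 CPM in Huh7 and 1560 to 2880 CPM in HLF. OAS3, a sensor of double-stranded RNA, had 23.2, 24.9, 26.8 and 24 CPM in Huh7, against 226, 221, 396 and 408 CPM in HLF. The Huh7 libraries were alike, while HLF Mix-Embed was above HLF Inject-Embed. IRF7 was the member higher in Huh7, at 3.08 ± 1.00 CPM in Huh7 and 1.23 ± 0.459 CPM in HLF (1.29 ± 0.31, adjusted p = 0.00155), and with Mix-Embed alone it was not called, at 0.76. Antigen presentation genes gave 16 of 18 lower in Huh7 and 1 higher, with a median of -2.63. B2M, the chain shared by class I molecules, had 200, 194, 186 and 191 CPM in Huh7, against 270, 260, 349 and 328 CPM in HLF, and ERAP2, which trims peptides for them, had 1.29 to 2.8 CPM in Huh7 and 170 to 207 CPM in HLF. NF-kB targets and cytokines gave 12 of 20 lower in Huh7 and 4 higher. The chemokine CCL2 had no count in Huh7 and 108, 106, 138 and 122 CPM in HLF, and the chemokine CCL20 had 132, 138, 200 and 210 CPM in Huh7 and 0.908, 1.19, 1.02 and 0.416 CPM in HLF.

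Cancer-testis antigens, genes normally read in germ cells that many tumours switch on, gave 16 of 18 members lower in Huh7 and 2 higher. Their median was -11.7, or -9.30 with members that had no count in the lower line at their bounds. Many of these antigens are copies of one another on chromosome X, and reads may be split among near-identical members. MAGEA4 had no count in Huh7, against 237, 255, 227 and 243 CPM in HLF, at least 4187.9-fold lower in Huh7. SSX1 had 1 count over the 4 Huh7 libraries, against 258, 249, 231 and 215 CPM in HLF. BRDT, a chromatin reader of the testis on chromosome 1, was the reverse, with 75.5, 81.3, 86.8 and 91.6 CPM in Huh7, against 0.13, 0, 0.137 and 0.237 CPM in HLF (9.25 ± 0.18, adjusted p = 3.14e-15). HOX genes, which mark position along the body axis, gave 13 of 29 higher in Huh7 and 14 lower. Over all genes 39.5% were higher and 42.2% lower. HOXB3 had 0 to 0.234 CPM in Huh7 and 12 to 15.2 CPM in HLF, whereas HOXD1 had 22.8 to 32.4 CPM in Huh7 and no count in HLF. HOXC10 had 58.6 to 65.8 CPM in Huh7 and 0.297 to 0.648 CPM in HLF, and HOXA3 had 18.7 to 20.8 CPM in Huh7 and 65.2 to 85.6 CPM in HLF.

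Ribosomal proteins and the cell cycle differed by less. Cytosolic ribosomal proteins gave 39 of 40 members higher in Huh7 and none lower, with a median of 0.832, and many of these genes have pseudogenes that can share reads. RPLP0 had 2093, 2113, 2475 and 2532 CPM in Huh7, against 1748, 1804, 1551 and 1538 CPM in HLF (0.45 ± 0.07, adjusted p = 3.09e-05). Genes of the G1/S step and DNA replication gave 17 of 30 higher in Huh7 and 9 lower, and those of G2/M and mitosis 5 of 29 higher and 17 lower. MCM7, a subunit of the replicative helicase, averaged 768 ± 20.2 CPM in Huh7 and 259 ± 16.4 CPM in HLF, and MKI67, a marker of cycling cells, 583 ± 42.4 CPM in Huh7 and 828 ± 30.5 CPM in HLF (SD, n = 4 each). CCND3, a cyclin of G1, had 3.83 to 6.74 CPM in Huh7 and 52.9 to 61.5 CPM in HLF. An enzyme of glycolysis and a lactate dehydrogenase were at or near 0 in Huh7. PFKP, the platelet form of phosphofructokinase, had 9 counts over the 4 Huh7 libraries, against 345, 350, 290 and 311 CPM in HLF, and LDHB had no count in Huh7, against 22, 21.9, 21.6 and 25.1 CPM in HLF.

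Markers of other cell types of the liver were counted in the same way. Of fibroblast and stellate cell markers 7 of 8 tested were lower in Huh7 and PDGFRA was higher, and their summed level was 145 to 166 CPM in Huh7 and 283 to 319 CPM in HLF. Of 9 endothelial markers 3 passed the filter, all higher in Huh7, with a summed level of 44.5 to 67.7 CPM in Huh7 and 8.24 to 9.97 CPM in HLF, and CDH5, VWF and KDR had 8 or fewer counts in each line. Of 11 leukocyte markers 2 passed, with a summed level of 236 to 281 CPM in Huh7 and 4.26 to 7.86 CPM in HLF. LYZ, lysozyme, made up nearly all of this, with 233, 234, 280 and 274 CPM in Huh7, while PTPRC, the defining leukocyte surface protein, had 2 counts in Huh7 and none in HLF. Bile duct markers gave 4 of 9 higher in Huh7 and 5 lower, against 39.5% higher and 42.2% lower over all genes. In such bulk libraries fewer cells with a transcript and less of it per cell cannot be told apart, and the part of these marker levels in the other results was not tested.

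The lines were next compared within each Matrigel culture, and the difference of the differences was tested in 1 fit of the 4 group means. In Inject-Embed 14678 genes (79%) differed between the lines and in Mix-Embed 14579 (78.5%), from separate libraries. Both cultures called 13170 genes, 13030 of them in the same direction and 140 in opposite directions. The 13030 genes were 88.8% of the Inject-Embed calls and 89.4% of the Mix-Embed calls. The line difference itself differed between the cultures for 2297 genes (12.4%), 1270 with a more positive value in Inject-Embed (6.84%) and 1027 with a more negative one (5.53%). For this test, the counts of list members below are to be read against 6.84% and 5.53%. It gave a difference of at least 2 on the log2 scale for 129 genes (0.694%). Differences of at least 2 numbered 46 by DESeq2 and 25 by limma on log2(FPKM + 1). The count of more positive values depended on single libraries. It was 643 without Huh7 Inject replicate 1, 766 without Huh7 Inject replicate 2, 701 without Huh7 Mix replicate 1 and 715 without Huh7 Mix replicate 2. The cultures differ in cells seeded as well as in how they were embedded, and these cannot be told apart.

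**Figure D3:**
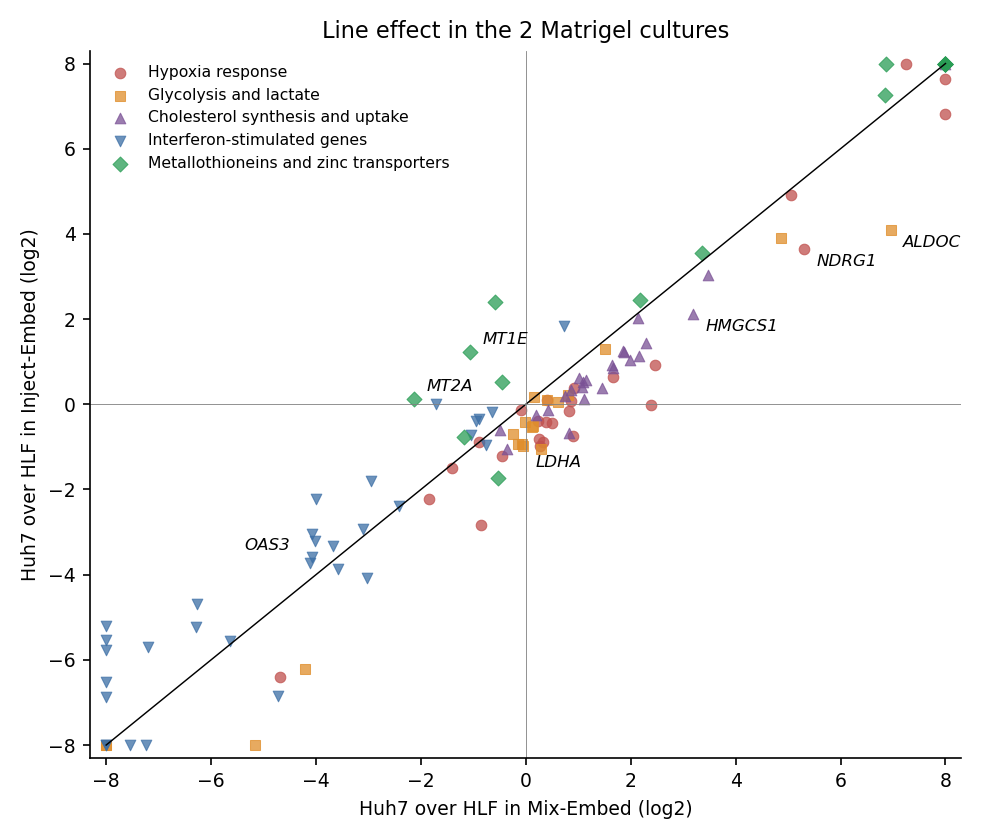
Line difference in Inject-Embed (vertical axis) against that in Mix-Embed (horizontal axis), each the log2 of Huh7 over HLF, for the tested members of 5 gene lists. Each symbol is a gene, the line marks equal values, and values beyond 8 in size are drawn at the edge. MT2A, MT1E and OAS3 lie above the line, and NDRG1, ALDOC, HMGCS1 and LDHA lie below it.

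Hypoxia genes, which cells switch on through HIF factors when oxygen is short, compared differently in the 2 cultures. In Inject-Embed 8 of 26 were higher in Huh7 and 14 lower, with a median of -0.274, against 38.6% higher and 40.4% lower over all genes. In Mix-Embed 19 were higher and 5 lower, with a median of 0.448, against 37.4% higher and 41% lower over all genes. The difference of the differences was negative for 18 members and positive for none. Over both cultures 11 were higher in Huh7 and 7 lower, a direction that turned to 10 higher and 11 lower when libraries were scaled by their totals alone. Glycolysis genes, several of them targets of the same factors, gave 7 of 19 higher in Huh7 and 9 lower over both cultures, and 4 higher with library totals. They had a negative difference of the differences for 14 of 19 members and a positive one for none. LDHA, which makes lactate, had 973 and 1027 CPM in Huh7 Inject-Embed and 1832 and 1757 CPM in Huh7 Mix-Embed, against 1964 and 1973 CPM in HLF Inject-Embed and 1844 and 1759 CPM in HLF Mix-Embed. Huh7 Inject-Embed alone was low, and the other 3 groups were close together. Over both cultures LDHA was lower in Huh7 (-0.51 ± 0.14, adjusted p = 0.00299). The line difference was -0.98 ± 0.03 in Inject-Embed and -0.05 ± 0.03 in Mix-Embed, and differed between them by -0.93 ± 0.05 (adjusted p = 3.78e-17). ENO1 and PKM, other enzymes of the pathway, gave differences of -0.79 ± 0.04 and -0.86 ± 0.05 between the cultures.

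NDRG1, a stress gene induced by hypoxia, had 342 and 334 CPM in Huh7 Inject-Embed and 663 and 675 CPM in Huh7 Mix-Embed, against 29.2 and 25.1 CPM in HLF Inject-Embed and 16.6 and 16.4 CPM in HLF Mix-Embed. It was higher in Mix-Embed in Huh7 and lower there in HLF, and its line difference changed by -1.66 ± 0.09 (adjusted p = 8.07e-16). ALDOC, a brain form of aldolase, had 40.4 and 42.8 CPM in Huh7 Inject-Embed and 138 and 131 CPM in Huh7 Mix-Embed, against 2.53 and 2.32 CPM in HLF Inject-Embed and 1.02 and 1.07 CPM in HLF Mix-Embed (-2.86 ± 0.29, adjusted p = 2.05e-09). P4HA1, which hydroxylates collagen, and LOX followed the same order of groups in Huh7, with changes of the line difference of -1.02 ± 0.07 and -2.14 ± 0.23. VEGFA, the vascular growth factor, had 61, 51.9, 92.3 and 103 CPM in Huh7, against 72.5, 76.1, 78.5 and 83.9 CPM in HLF. It was not called over both cultures (-0.08 ± 0.11, adjusted p = 0.521), and its line difference changed by -0.62 ± 0.10 between them (adjusted p = 3.74e-05). This change did not pass the test under limma on FPKM, at -0.49 and -0.59. Among collagens 6 of 22 changed in the negative direction, COL1A2 among them, by -1.74 ± 0.32 (adjusted p = 0.00018).

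The sterol genes also compared differently. The difference of the differences was negative for 20 of 24 cholesterol genes and positive for none, and the median line difference was 0.603 in Inject-Embed and 1.30 in Mix-Embed. HMGCS1, the enzyme that makes the precursor of mevalonate, had 566 and 579 CPM in Huh7 Inject-Embed and 839 and 815 CPM in Huh7 Mix-Embed, against 134 and 130 CPM in HLF Inject-Embed and 82.9 and 92.7 CPM in HLF Mix-Embed. Mix-Embed was the higher culture in Huh7 and the lower one in HLF, and the line difference changed by -1.07 ± 0.07 (adjusted p = 6.59e-15). LSS changed by -0.69 ± 0.07. Fatty acid genes had a negative change for 13 of 23 members, and ribosomal proteins for 37 of 40.

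Metallothioneins, small proteins that bind zinc and copper and are switched on by these metals through MTF1, went the other way. Of 16 tested members of the metallothionein and zinc transporter list, 5 had a positive change and 1 a negative one. MT2A had 252 and 229 CPM in Huh7 Inject-Embed and 52.4 and 60.1 CPM in Huh7 Mix-Embed, against 214 and 226 CPM in HLF Inject-Embed and 240 and 236 CPM in HLF Mix-Embed. Huh7 Mix-Embed alone was low. Over both cultures MT2A was lower in Huh7 (-0.95 ± 0.32, adjusted p = 0.0147), with a line difference of 0.13 ± 0.05 in Inject-Embed and -2.13 ± 0.06 in Mix-Embed. The change was 2.25 ± 0.08 (adjusted p = 1.7e-21). The call over both cultures was lost without Huh7 Mix replicate 1, at -0.60, and without Huh7 Mix replicate 2, at -0.66. MT1E had 132, 137, 27 and 28.2 CPM in Huh7, against 56.4, 58.6, 58.3 and 54.2 CPM in HLF, so that Huh7 was above HLF in Inject-Embed and below it in Mix-Embed. It was not called over both cultures (0.17 ± 0.32, adjusted p = 0.631), and its line difference changed by 2.29 ± 0.10 (adjusted p = 6.37e-19). MT1G had 152, 162, 24.8 and 23.2 CPM in Huh7 and no count in HLF, at least 1834.4-fold higher in Huh7 over both cultures. MTF1 had 15.3 to 19.4 CPM in Huh7 and 32.2 to 35.2 CPM in HLF. The metallothionein genes are near-identical copies on chromosome 16, and reads may be split among them.

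Interferon-stimulated genes had a positive change for 9 of 32 members and a negative one for 2, and OAS3 changed by 0.80 ± 0.10, with the higher level in HLF Mix-Embed given above. B2M changed by 0.46 ± 0.07 and CCN2 by 0.83 ± 0.15. Among plasma proteins FGG changed by 1.11 ± 0.10, FGB by 0.81 ± 0.08 and C3 by 0.84 ± 0.08, where HLF Mix-Embed was again above HLF Inject-Embed. ALDH1A1, a retinal dehydrogenase, had 2558 and 2607 CPM in Huh7 Inject-Embed and 1721 and 1680 CPM in Huh7 Mix-Embed, against 179 and 177 CPM in HLF Inject-Embed and 256 and 232 CPM in HLF Mix-Embed (1.09 ± 0.05, adjusted p = 1.46e-17).

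The line difference in Matrigel was then set against that in 2D, in 1 fit over the 12 libraries. The 2D cells were harvested earlier and near confluence, so the gel, the days in culture and the density cannot be told apart. In 2D 14941 of 19342 genes (77.2%) differed between the lines. Of the genes called in both, 12917 had the same direction, which is 85.2% of the Matrigel calls and 89.2% of the 2D calls among genes tested in both, and 279 had opposite directions. The line difference itself differed between Matrigel and 2D for 4977 genes (25.7%), 2461 more positive in Matrigel (12.7%) and 2516 more negative (13%). For this test, the counts of list members below are to be read against 12.7% and 13%. By at least 2 on the log2 scale it differed for 426 genes (2.2%), 123 more positive (0.636%) and 303 more negative (1.57%), and for 41 genes by limma on log2(FPKM + 1). Among the genes whose difference changed and kept its sign, 1865 lay nearer to 0 in Matrigel. A further 2105 lay farther from 0 and were also called between the lines in Matrigel, a condition not set for the 1865.

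**Figure D4:**
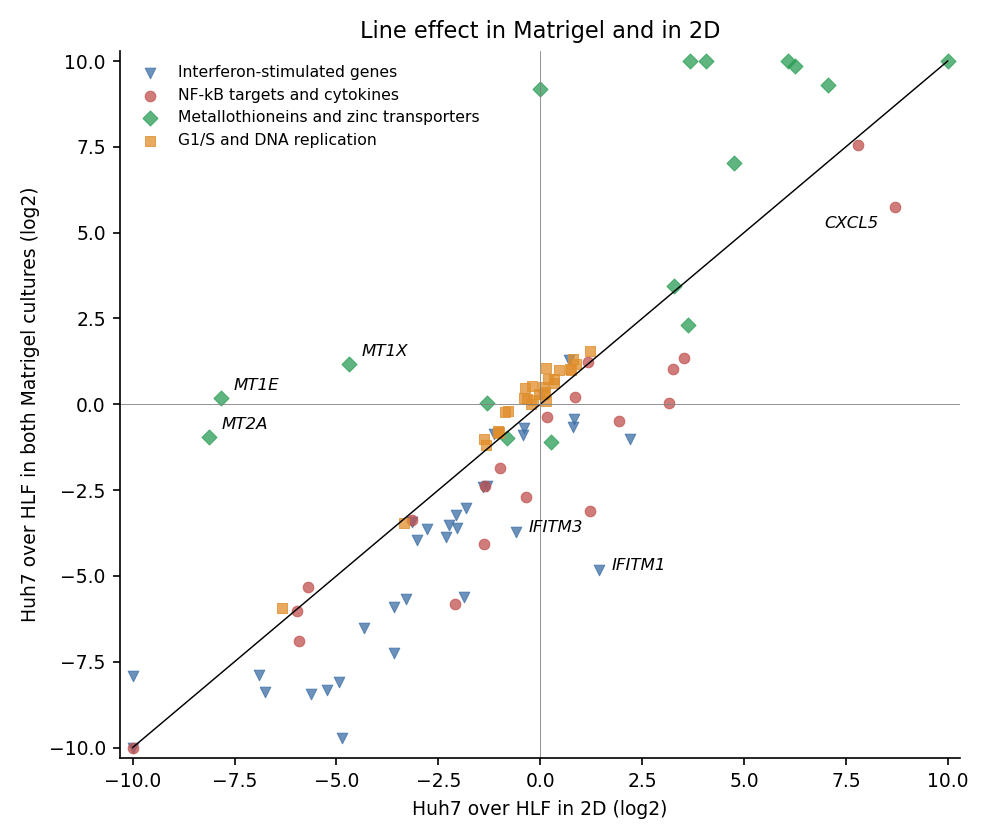
Line difference in Matrigel (vertical axis) against that in 2D (horizontal axis), each the log2 of Huh7 over HLF, for the tested members of 4 gene lists. Each symbol is a gene, the line marks equal values, and values beyond 10 in size are drawn at the edge. MT2A, MT1E and MT1X lie far above the line, and IFITM1, IFITM3 and CXCL5 lie below it.

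MT1E and MT2A had the 2 most positive changes among protein-coding genes called with a mean of at least 10 CPM in any group. MT2A averaged 0.838 CPM in Huh7 2D and 238 CPM in HLF 2D, so that the line difference was -8.13 ± 0.12 in 2D, and it changed by 7.16 ± 0.15 (adjusted p = 1.03e-34). MT1E averaged 0.236 CPM in Huh7 2D and 55.5 CPM in HLF 2D and changed by 7.94 ± 0.24, and MT1X changed by 5.63 ± 0.57. The levels in HLF 2D were within the range of HLF in Matrigel for both MT2A and MT1E, while those in Huh7 2D lay far below any Huh7 Matrigel library. In the whole list 6 of 16 tested members changed in the positive direction and 2 in the negative one, the latter near the 13% over all genes.

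Interferon-stimulated genes changed mostly in the negative direction, 21 of 32 members against 2 in the positive one. Their median line difference was -3.79 in Matrigel and -2.28 in 2D. IFITM3, which blocks entry of viruses, had 15.9, 13.9, 31.9 and 31.7 CPM in Huh7 Matrigel libraries and 85.9 CPM on average in Huh7 2D, against 222, 215, 370 and 368 CPM in HLF Matrigel libraries and 130 CPM on average in HLF 2D. Huh7 was lower in Matrigel than in 2D and HLF was higher, and the line difference changed by -3.10 ± 0.08 (adjusted p = 2.97e-31). IFITM1 changed by -7.21 ± 1.23, at 0 to 0.467 CPM in Huh7 Matrigel libraries and 1.1, 0.878, 12.1 and 10.9 CPM in HLF Matrigel libraries, levels that rest on few counts. The NF-kB list changed in the negative direction for 12 members of 22 and in the positive one for none. Its median line difference was -2.12 over the 20 members tested in Matrigel, or -0.429 without the 4 of few counts. In 2D it was 0.518 over 22 members, and the median change was -1.2. CXCL5, a neutrophil chemokine, changed by -2.99 ± 0.41. Antigen presentation genes changed in the negative direction for 9 of 18 members, CD74, the chaperone of class II molecules, by -2.25 ± 0.44.

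Liver genes changed in both directions. AFP averaged 25044 CPM in Huh7 2D and 0.56 CPM in HLF 2D, so that its line difference was 15.42 ± 0.09 in 2D and changed by -3.76 ± 0.20 (adjusted p = 3.37e-19). The level in Huh7 was close to that in Matrigel, and HLF, with 4.86 to 9.7 CPM in Matrigel, was the line in which AFP differed in proportion. SERPINA1 changed by -1.94 ± 0.18 with the same order of HLF levels, at 3.38 CPM on average in Matrigel and 1.03 CPM in 2D. FGB changed in the positive direction, by 1.92 ± 0.06 (adjusted p = 4.67e-27), with 166 CPM on average in HLF 2D, above all 4 HLF Matrigel libraries. NR2F1 was not called in 2D (-0.04 ± 0.07, adjusted p = 0.595), differed by -1.29 ± 0.08 in Matrigel and changed by -1.22 ± 0.09. KRT8 changed by 1.06 ± 0.05.

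Cholesterol genes changed in the negative direction for 17 of 24 members and in the positive one for none. Their medians were 0.888 in Matrigel and 1.53 in 2D, and HMGCS1 changed by -1.24 ± 0.06. Hypoxia genes changed in the negative direction for 15 of 26 members and in the positive one for 5, P4HA1 by -1.32 ± 0.07. Glycolysis genes changed in the negative direction for 11 of 19 and in the positive one for 1, LDHA by -0.49 ± 0.05. Ribosomal proteins changed in the positive direction for 30 of 40 members, and G1/S and DNA replication genes for 24 of 30 with none negative. MYC, a driver of both growth and ribosome synthesis, had 190, 183, 148 and 155 CPM in Huh7 Matrigel libraries and 95.6 CPM on average in Huh7 2D, against 86.3, 83.5, 87.2 and 91.1 CPM in HLF Matrigel libraries and 116 CPM on average in HLF 2D. Its line difference was -0.27 ± 0.06 in 2D and 0.93 ± 0.07 in Matrigel, and changed by 1.22 ± 0.07 (adjusted p = 1.87e-17).

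Cancer cell lines carry gains and losses of whole chromosomes, so the line difference was also read along the genome. Over 14213 protein-coding genes on chromosomes 1 to 22 and X, 41.5% were higher in Huh7 and 43.6% lower, with a median of -0.0328. Chromosome 3 had a median of 0.593, with 493 of 802 genes higher in Huh7 and 214 lower, and chromosome 8 a median of 0.537, with 300 of 476 higher and 104 lower. Chromosome 18 had the lowest median, -1.06, with 43 of 202 genes higher in Huh7 and 137 lower. Chromosome X followed at -0.94, with 117 of 514 higher and 344 lower, and chromosome 21 at -0.713, with 28 of 144 higher and 100 lower. In 2D the medians were 0.62 for chromosome 3, -0.928 for chromosome 18, -0.939 for chromosome X and -0.65 for chromosome 21, from libraries that the Matrigel comparison did not use. DNA copy number was not measured here.

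**Figure D5:**
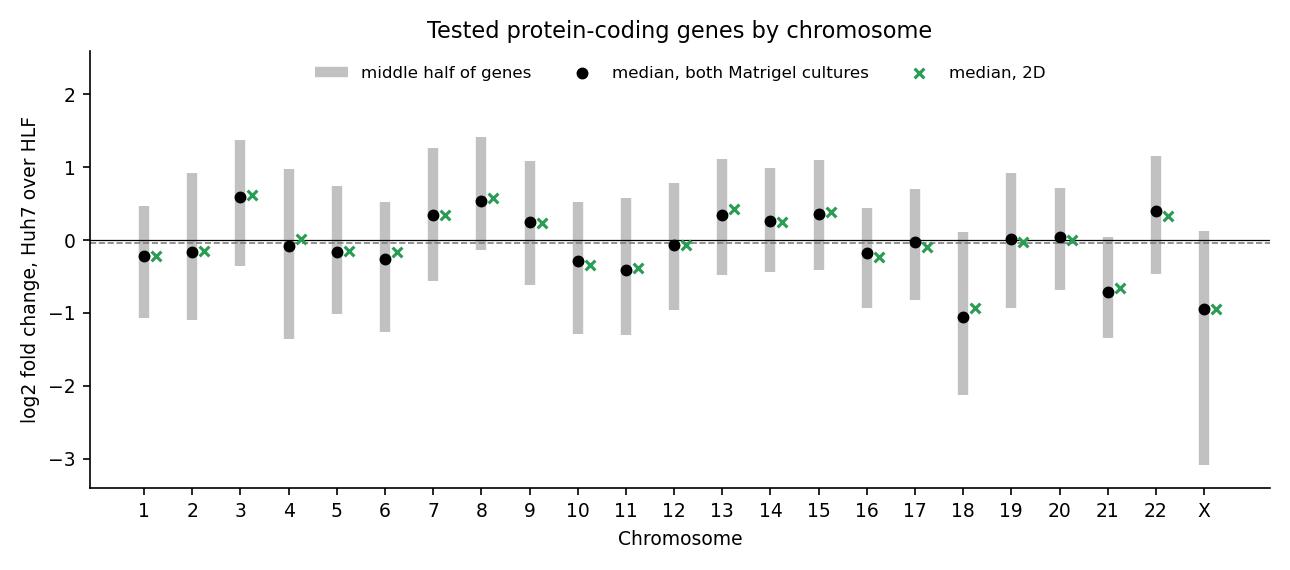
Line difference by chromosome for protein-coding genes, as the log2 of Huh7 over HLF. Dots are the medians in Matrigel, bars span the 25th to the 75th percentile of genes, crosses are the medians in 2D and the dashed line is the median of all genes in Matrigel. Chromosomes 18, X and 21 lie lowest and chromosomes 3 and 8 highest, at nearly the same values in both settings.

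Read in windows of 10 Mb with at least 15 genes, 58 of 281 windows had a median above 0.5 and 63 one below -0.5. The lowest was a window of chromosome X, from base 50000001 to base 60000000 on GRCh38, where 38 of 41 genes tested were lower in Huh7 and the median was -4.78. In that window 18 genes had 3 or fewer counts over the 4 Huh7 libraries, 15 of them none, against 1 gene in HLF. Over the whole genome 605 of 14213 genes (4.26%) were at that level in Huh7 and 543 in HLF, and over chromosome X 96 of 514 in Huh7 and 22 in HLF. MAGED1, a regulator of cell death and differentiation, had no count in Huh7 and averaged 147 CPM in HLF. HUWE1, a ubiquitin ligase, averaged 451 CPM in Huh7 and 863 CPM in HLF, and SMC1A, a cohesin subunit, 269 CPM in Huh7 and 398 CPM in HLF, both lower in Huh7 as well.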

How the data were processed

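Paired reads of poly-A RNA came from an Illumina NovaSeq, per the labels' protocols. The submitters' processing notes name FastQC, Trimmomatic, STAR 2.7.9a, featureCounts and GRCh38. How these steps were ordered, the strand setting and the annotation's version are not given in the sources used. The authors deposited raw read counts per gene and FPKM for the same 58735 genes, 19951 of them protein-coding. The deposited FPKM equal the count over gene length and library total to within a relative 1e-06 for 167453 values with at least 20 counts. Gene IDs matched a symbol table for 58207 genes (99.1%). The short culture name for embedded cells in the columns was read as Mix-Embed.

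Counts were tested with edgeR 4.0.16 in R 4.3.3, with TMM scaling, the filterByExpr filter at a minimum count of 10, quasi-likelihood F tests and Benjamini-Hochberg adjustment at 0.05 over all genes. The line comparison used the 8 Matrigel libraries with culture and line as terms. The difference between cultures used 4 group means and the difference from 2D 6 group means over 12 libraries. The coefficient of variation left over in these fits was 7.93%, 4.27% and 4.59%. In the fits of group means it is that between replicates. In the line comparison it also holds changes of the line difference between the cultures. A standard error is the log2 difference over the square root of F, and is smaller than counting error where a line has few counts. Against 0 counts a bound uses a floor of 3 counts over the 4 libraries of a line, and against 1 to 3 counts a ratio has an exact 95% interval. Replicate libraries differed beyond sampling noise, with a chi-square per gene of 2.15 to 2.85. Each fit was run on simulated data in which a small share of genes had known changes and all others were equal between the lines. In these data most genes differ, so that run does not show how the fits behave here. Alternatives were DESeq2 1.42.0, limma 3.58.1 on log2(FPKM + 1) and log2(FPKM + 0.1), library totals, no filter, other designs and each library left out. Other steps used matplotlib 3.10.9, numpy 2.4.6, pandas 2.3.3 and python 3.11.15.

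The members and gene lists were chosen with earlier results of these data known. The rule for named genes took, among protein-coding genes, the 10 highest and 10 lowest called differences at 10 CPM or more with no overlap, the 10 highest by FPKM in each line, up to 4 members of each list in its main direction and up to 2 in the other, the 6 highest and 6 lowest for each difference of differences, and a fixed set. The text gives a selection of these. COL1A1, ANKRD1, CCND1, HOXC10, LDHB, MAGED1, HUWE1 and SMC1A lie outside the rule and were chosen after their values were seen, and CDH5, VWF, KDR and PTPRC come from the marker lists. For the differences between cultures and from 2D, genes that the rule named for the line comparison were also followed. Some genes that the rule names are not reported here.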

Additional observations from a re-analysis of the deposited data

Results flagged for a closer look

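The line difference changed between the Matrigel cultures, by the test of the difference itself in edgeR's 4-group fit, for these genes named above, with positive values where Huh7 over HLF was higher in Inject-Embed. It was 2.25 for MT2A, 2.29 for MT1E and 2.98 for MT1X, the metallothioneins. It was 0.80 for OAS3 and 0.46 for B2M, the interferon and antigen genes. It was 1.11 for FGG, 0.81 for FGB, 0.84 for C3, 1.09 for ALDH1A1 and 0.83 for CCN2. Negative values were -2.14 for LOX, -1.74 for COL1A2 and -1.02 for P4HA1, genes of matrix and its turnover. They were -1.66 for NDRG1, -2.86 for ALDOC, -0.93 for LDHA, -0.79 for ENO1, -0.86 for PKM and -0.62 for VEGFA, genes of hypoxia and glycolysis. In the sterol pathway they were -1.07 for HMGCS1 and -0.69 for LSS.

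The line difference changed between Matrigel and 2D, by the test of the difference in the 12-library fit, with positive values where Huh7 over HLF was higher in Matrigel. It was 7.16 for MT2A, 7.94 for MT1E, 5.63 for MT1X, 1.92 for FGB, 1.22 for MYC and 1.06 for KRT8. It was -7.21 for IFITM1, -3.10 for IFITM3, -2.99 for CXCL5 and -2.25 for CD74. It was -3.76 for AFP, -1.94 for SERPINA1, -1.24 for HMGCS1, -1.32 for P4HA1, -1.22 for NR2F1 and -0.49 for LDHA. Both tests were run over all genes, and these genes are the named ones among those called. No explanation was tested for any of them.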

How the results depend on the processing

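Single genes were checked under alternatives only where the text follows them. Of 2300 such values for the line comparison, 2282 kept direction and side of the threshold. So did 313 of 315 for the difference between the cultures and 304 of 304 for the difference from 2D. Many of these genes were named for large called differences in these data, so these shares do not describe the other called genes. Of 2062 counts of list members 1993 stayed within 1.5 times. Of 100 chromosome medians under alternatives 86 stayed close, 14 moved and 0 changed sign. Genes different by at least 2 on the log2 scale numbered 1822 under limma on log2(FPKM + 1). For the difference between the cultures, limma on log2(FPKM + 0.1) called 1318 genes, 743 more positive and 575 more negative, and 76 by at least 2, against 25 under log2(FPKM + 1). DESeq2 called 727 more positive and 46 by at least 2. For the difference from 2D, 41 genes differed by at least 2 under limma on log2(FPKM + 1) and 202 under log2(FPKM + 0.1).

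Leaving out each library in turn, the line comparison called 14782 to 14848 genes, 7104 to 7297 higher and 7551 to 7678 lower, 5535 to 5590 by at least 2. The difference between the cultures called 1608 to 1993, with 643 to 1103 more positive, 778 to 1006 more negative and 91 to 115 by at least 2. The difference from 2D called 3927 to 4837, with 1896 to 2514 more positive, 2031 to 2428 more negative and 364 to 421 by at least 2. List members higher in Huh7 numbered 438 to 445 and lower 357 to 369, against 441 and 367.

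The hypoxia list had 10 members higher and 11 lower with library totals and 8 higher and 14 lower in Inject-Embed alone. MT2A was 0.13 in Inject-Embed alone, MT1E -1.03 and VEGFA 0.26 in Mix-Embed alone. MT2A was not called under DESeq2, at -0.97, or with no culture term, at -0.64. CCN2 was called with 4 group means, at 0.21, and with 12 libraries, at 0.23. The cause was not tested. Library totals in place of TMM moved the median of protein-coding genes to -0.208. With a replicate block, 14986 genes were called for the line comparison, 2230 for the difference between the cultures and 4989 for the difference from 2D. Libraries with the same number did not deviate together (correlations of -0.036 to 0.034). This cannot show whether they were prepared together.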
